A study of Sus scrofa with 9 samples.

Results

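Collagen chain genes encode the chains that assemble into the collagens of the extracellular matrix. They were chosen by name, as every gene whose symbol is COL, a type number, A and a chain number, in each deposited table of 5hmC levels. There were 42 of them among the 18933 genes measured in Obese-MSCs and Lean-MSCs, and the same 42 among the 18992 genes measured in vitamin-C-treated and untreated Obese-MSCs. They comprise 11 chains of fibrillar collagens, 6 of basement membrane type IV, 3 of beaded-filament type VI, 1 of anchoring fibrils, 3 of short-chain networks, 10 of FACITs (collagens that sit on the surface of fibrils), 4 transmembrane chains, 2 multiplexins and 2 others. The type VI chains COL6A1, COL6A2 and COL6A4 were not analysed here. The chains lie on 16 chromosomes of Sscrofa11.1.

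Collagen chains wind around each other into a rigid helix inside the endoplasmic reticulum, and this helix is held stable by hydroxyproline. The prolyl and lysyl hydroxylases that modify the chains need vitamin C, and so do the TET enzymes, which convert 5-methylcytosine of DNA into 5-hydroxymethylcytosine (5hmC). Outside the cell, propeptides are cleaved and lysyl oxidases crosslink the chains into fibrils, networks or filaments. Adipose-derived mesenchymal stem/stromal cells (MSCs) are stromal cells and make fibrillar types I, III and V and filamentous type VI. 5hmC over gene bodies is often found in genes that a cell uses, but the values here are 5hmC on DNA and not expression.

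The libraries were made by hMeDIP-seq, in which sonicated DNA is captured with an antibody against 5hmC and sequenced. MSCs came from subcutaneous abdominal fat of young female domestic pigs and were expanded in culture. Lean-MSCs (3 libraries, replicates 7, 8 and 9) came from pigs fed standard chow, and Obese-MSCs from pigs fed a high-fat/high-fructose diet for 16 weeks. Untreated Obese-MSCs gave 3 libraries (replicates 1, 2 and 3), and Obese-MSCs given 50 µg/mL vitamin-C over 48 h gave the other 3 (replicates 4, 5 and 6). The labels do not say which treated culture shares an animal with which untreated culture, so p-values measure the spread between these libraries only. Each culture was read in bulk, so fewer cells carrying the mark and less 5hmC per cell cannot be told apart.

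Values are normalized counts over the exons of a gene. Libraries summed to between 494566 and 522269 in the first table and to between 547242 and 593846 in the second, and the depth in reads behind them is not known. The libraries of untreated Obese-MSCs appear in both tables, each time with its own normalization. Levels of different chains were not ranked, because exon lengths were not used here. Chains were called high or low when the unadjusted p of a two-sided equal-variance test was 0.05 or less and the ratio of group means was at least 1.4 or at most 0.7. The limma fold changes are on the log2(value + 1) scale, with adjustment over all genes tested, and other fold changes are log2 ratios of group means. Of 15 marker genes of MSCs, blood cells, adipocytes, endothelium and macrophages, none was called in either comparison. The shares of all genes called were 4.50% in Obese-MSCs versus Lean-MSCs and 1.92% with vitamin-C. All but CD14, at 0 in the 3 Lean libraries, had values above 0 in every library. CSF1R was as low as 1.01 in treated replicate 4. These values do not sort cell types.

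The collagen chains together took a larger part of the 5hmC signal in each Obese library than in each Lean library. Their share of the library total was 0.773%, 0.753% and 0.800% in Obese replicates 1, 2 and 3, and 0.667%, 0.710% and 0.704% in Lean replicates 7, 8 and 9. The summed collagen signal averaged 3969 normalized counts across the Obese libraries and 3464 across the Lean ones. Of the difference of 505, COL7A1 held 119, COL3A1 113 and COL12A1 102. Without those 3 chains the shares were 0.497%, 0.518% and 0.511% in Obese-MSCs against 0.474%, 0.509% and 0.479% in Lean-MSCs, and the groups overlapped. The 3 chains were picked for the largest rises in these same values, so a smaller difference without them was fixed beforehand. The shares are a description, with no test.

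**Figure D1:**
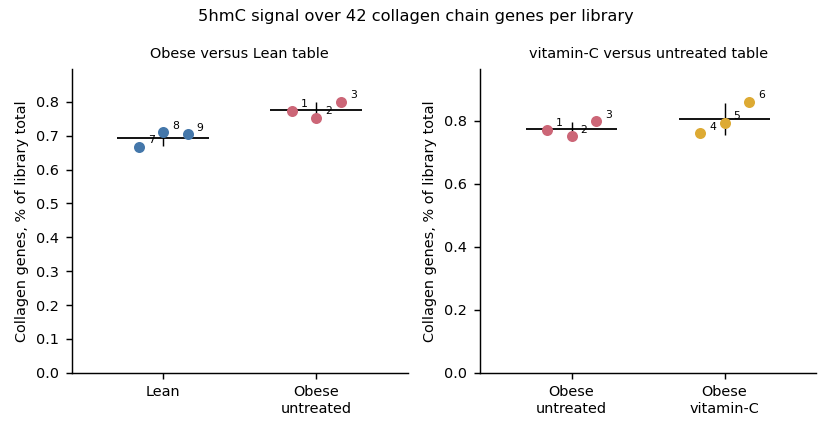
Share of each library's total normalized counts that falls on the 42 collagen chain genes, in percent, in the Obese versus Lean table (left) and in the vitamin-C table (right). Points are libraries numbered by replicate, horizontal lines are means of 3 libraries and vertical lines 1 SD. The Obese libraries lie between 0.753% and 0.800%, all above the Lean libraries, while treated and untreated Obese libraries overlap and treated replicate 6 is highest at 0.861%.

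In Obese-MSCs compared with Lean-MSCs, 1 collagen chain had high 5hmC, COL3A1, and 1 had low 5hmC, COL28A1. That is 2 of 42 chains, or 4.76%, against 4.50% of all genes called in either direction (2.07% high and 2.43% low). Obese-MSCs were clear of Lean-MSCs, with no overlap of libraries, in 11 chains (26.2%), against 11.8% of all genes. In 9 of these (21.4%) the Obese libraries were higher, against 5.70% of all genes, and in 2 (4.76%) they were lower, against 6.06%. With limma, 5 of 40 chains tested had an unadjusted p of 0.05 or less (12.5%), against 6.81% of all genes tested, with 4 higher in Obese-MSCs (10.0%, against 3.20%) and 1 lower (2.5%, against 3.61%). None of the 40 passed after adjustment, nor did any of the 15146 genes tested, and the smallest adjusted p of a chain was 0.668. The chains left out of limma by its filter on low means were COL18A1 and COL20A1.

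The ratio of Obese to Lean means was above 1 in 28 of 42 chains (66.7%) and in 51.2% of all genes. The median log2 fold change was 0.11 over the 40 chains with both means above 3, with a range of -0.88 to 0.88, and 0.01 over all genes with such means. The chains were also better covered than most genes, as 34 of 42 averaged more than 10 normalized counts in Lean-MSCs, against 10752 of 18933 genes. Their coefficient of variation between libraries, over the chains above that level, had a median of 16.3% in Obese-MSCs and 16.2% in Lean-MSCs, below the 22.1% and 20.4% of all such genes. The sum over the MSC surface markers NT5E, THY1 and ENG was 94.8 to 123 normalized counts in Obese-MSCs and 80.1 to 88.4 in Lean-MSCs. Of these 3 only ENG had groups apart and higher in Obese-MSCs, against 5.70% of all genes. The sums of the other marker lists overlapped. Among their genes CD14, a marker that MSCs should lack, was also higher in every Obese library. It had 0.650, 0.924 and 4.49 against 0 in each Lean library. The part of coverage and of the markers in the collagen values was not tested.

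**Figure D2:**
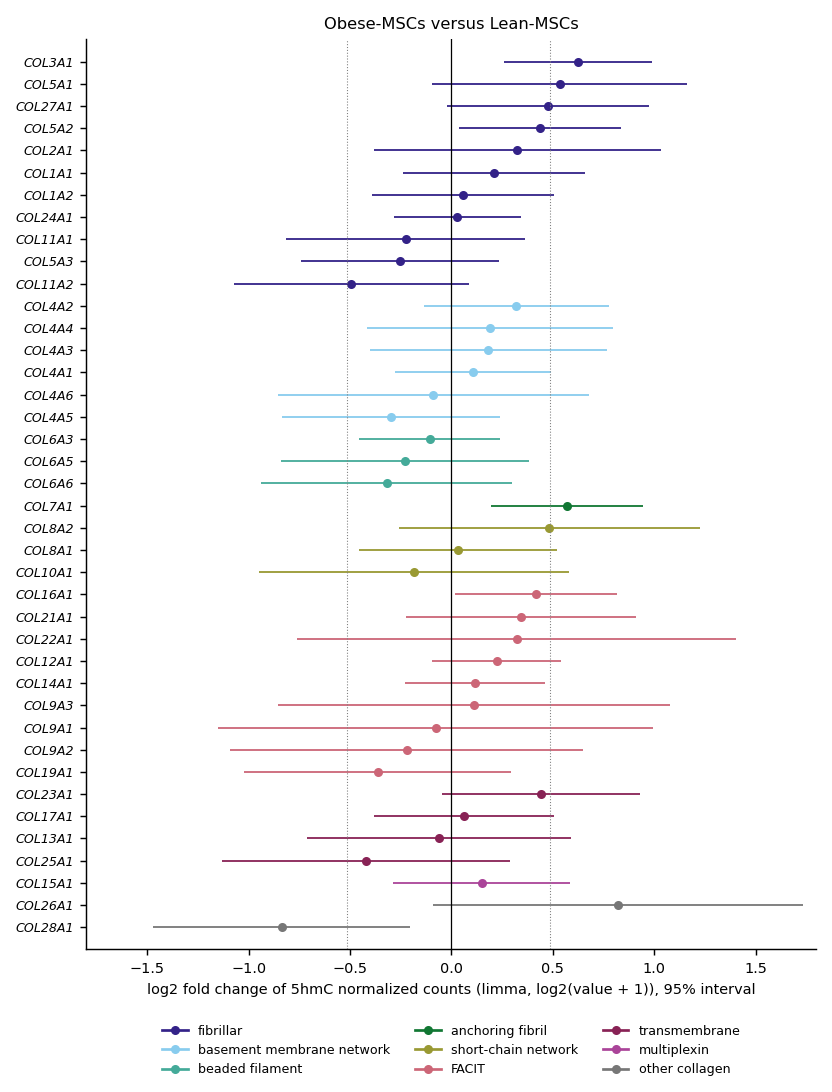
Log2 fold change of 5hmC normalized counts in Obese-MSCs versus Lean-MSCs for the 40 collagen chains fitted by limma on log2(value + 1), with 95% intervals as horizontal lines, coloured by structural class. Dotted lines mark ratios of 0.7 and 1.4. The intervals of COL3A1, COL5A2, COL7A1 and COL16A1 lie above 0 and that of COL28A1 below 0, before adjustment for the number of genes.

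Among fibrillar chains, the core of the tissue's tensile fibrils, 8 of 11 had ratios above 1, against 51.2% of all genes, and the median log2 fold change was 0.24. The 3 with all Obese libraries above all Lean libraries, against 5.70% of all genes, were COL3A1, COL5A2 and COL27A1. COL3A1 encodes type III collagen, a partner of type I in the fibrils of vessels, skin and fat, and lies on chromosome 15 from 93556914 to 93595678. It had 300, 275 and 379 normalized counts in Obese replicates 1, 2 and 3, and 182, 224 and 206 in Lean replicates 7, 8 and 9. Every Obese library was above every Lean library, and replicate 3 was the highest. The means were 318 ± 54.1 and 204 ± 21.2 (SD, n = 3 each), a ratio of 1.56. The limma log2 fold change was 0.63 (95% interval 0.26 to 0.99) with an unadjusted limma p of 0.00194 and an adjusted p of 0.668. The call of COL3A1 as high held in 2 of the 6 fits that left out 1 library, those without Obese replicate 2 or 3, while the ratio stayed between 1.41 and 1.66 in all 6. COL3A1 was not called with quantile normalization or with unequal variances.

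COL5A2, a chain of the type V collagen that sets the diameter of type I fibrils, is the neighbour of COL3A1, starting 16.2 kb beyond its end, and extends on chromosome 15 from 93611856 to 93981131. Its Obese libraries had 141, 182 and 141 normalized counts and its Lean libraries 114, 116 and 110. The groups did not overlap, the Lean libraries were close together, and Obese replicate 2 was the highest. The log2 fold change was 0.45 and the ratio 1.37, under the threshold for a call (limma, adjusted p = 0.704). The partner chain COL5A1 gave another picture, with 36.4, 99.9 and 57.9 normalized counts across the Obese libraries and 36.3, 39.7 and 47.2 across the Lean ones. Only Obese replicates 2 and 3 were above the Lean libraries, and the log2 fold change was 0.66 with all libraries and 0.20 without replicate 2. COL5A3, a type V chain known from fat and muscle, had 64.4, 61.6 and 72.8 in Obese-MSCs and 71.4, 106 and 64.8 in Lean-MSCs, with overlap and a log2 fold change of -0.29.

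The type I chains, the bulk of most connective tissue, showed little separation. COL1A1 had 151, 119 and 89.9 normalized counts across the Obese libraries and 107, 100 and 96.6 across the Lean ones, and COL1A2 had 82.3, 78.7 and 94 against 77, 97.3 and 71.9. Both overlapped between groups, with log2 fold changes of 0.24 and 0.05, and the limma intervals reached from -0.24 to 0.66 and from -0.39 to 0.51. Of the fibrillar chains typical of cartilage, COL2A1 had 14.8, 16.2 and 9.65 in Obese-MSCs and 9.12, 11.9 and 10.3 in Lean-MSCs, with overlap. COL11A2, on chromosome 7, had 19.9, 28.5 and 28.1 in Obese-MSCs and 28.5, 43.7 and 37 in Lean-MSCs. Its Obese libraries all lay below its Lean libraries, but the highest Obese and the lowest Lean library were nearly equal, and with a ratio of 0.701 it met neither the ratio nor the p criterion (log2 fold change -0.51, limma, adjusted p = 0.784). COL27A1, another cartilage fibrillar chain, had 58.1, 60.7 and 73.9 in Obese-MSCs and 39.7, 56.6 and 42.1 in Lean-MSCs, a ratio of 1.39. COL24A1 had the narrowest limma interval among fibrillar chains, with 354, 334 and 361 against 326, 352 and 349 normalized counts and an interval of -0.28 to 0.34.

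COL7A1 encodes the chain of the anchoring fibrils that tie the epidermal basement membrane to the dermis, and lies on chromosome 13 from 31262750 to 31295112. It had 302, 310 and 451 normalized counts in Obese replicates 1, 2 and 3 and 210, 253 and 241 in the Lean replicates. No Obese library fell below a Lean library, and replicate 3 stood well above the others. The means were 354 ± 84 and 235 ± 22.1 (SD, n = 3 each) and the ratio 1.51, but COL7A1 was not called because of the spread among Obese libraries. The limma log2 fold change was 0.57 (95% interval 0.19 to 0.95), with an unadjusted limma p of 0.00497 and an adjusted p of 0.668. Without replicate 3 the log2 ratio of means of COL7A1 was 0.38, against 0.59 with all libraries. When the equal-variance test was run on log2(value + 1), COL7A1 was called high beside COL3A1.

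Among the 10 FACITs, 7 had ratios above 1, against 51.2% of all genes, and 2 had higher values in Obese-MSCs with no overlap, COL16A1 and COL21A1, against 5.70% of all genes. COL16A1, a chain found on fibrils and near basement membranes, is on chromosome 6 from 88177798 to 88243718. It had 157, 139 and 146 normalized counts across the Obese libraries and 98.5, 108 and 125 across the Lean ones. All Obese libraries were above all Lean libraries, with a gap of the size of the spread within a group. The ratio was 1.33 and the log2 fold change 0.41 (limma, adjusted p = 0.708). COL21A1 had 27.9, 30.4 and 28.3 against 24.8, 24.8 and 18.5, a ratio of 1.27. COL12A1, a FACIT of dense fibrous tissue, had 841, 608 and 631 in Obese-MSCs and 586, 518 and 669 in Lean-MSCs. Its groups overlapped and its log2 fold change was 0.23.

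**Figure D3:**
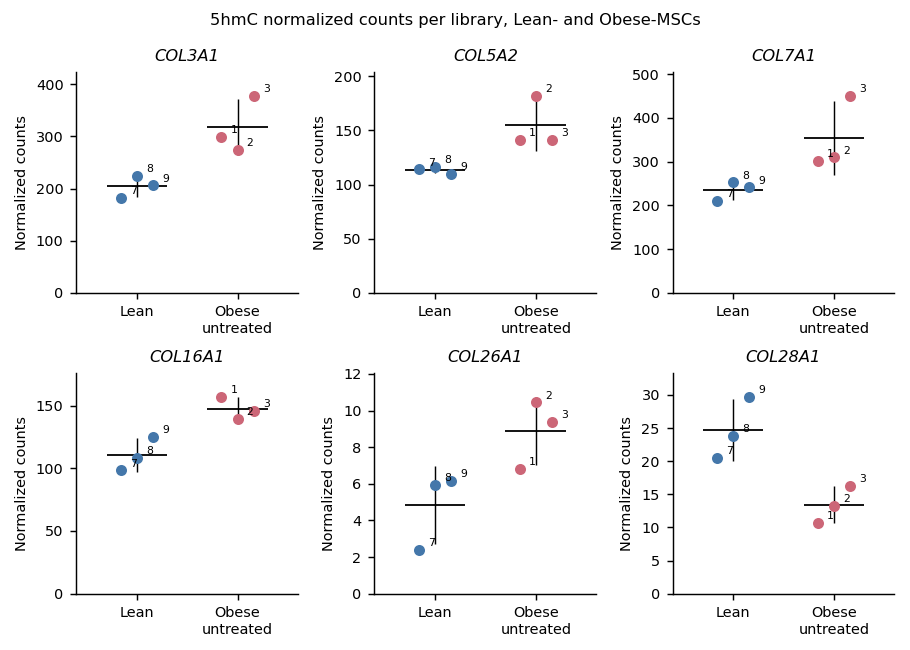
5hmC normalized counts of 6 collagen chains in each Lean and untreated Obese library, numbered by replicate, with the mean (horizontal line) and 1 SD (vertical line) of 3 libraries. The groups do not overlap in any panel. Obese libraries are higher for COL3A1 (275 to 379 against 182 to 224), COL5A2, COL7A1, COL16A1 and COL26A1, and lower for COL28A1.

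COL28A1 had the lowest fold change of the family and was the chain with low 5hmC. It encodes a chain with von Willebrand factor A domains known from the basement membranes around peripheral nerve cells, and lies on chromosome 9 from 77670890 to 77841939. It had 10.7, 13.3 and 16.3 normalized counts across the Obese libraries and 20.5, 23.8 and 29.7 across the Lean ones. The groups were clearly apart, with the highest Obese library under the lowest Lean library. The means were 13.4 ± 2.82 and 24.7 ± 4.69 (SD, n = 3 each), a ratio of 0.543. The limma log2 fold change was -0.84 (95% interval -1.47 to -0.20), with an unadjusted limma p of 0.0123 and an adjusted p of 0.674. The call held in 3 of the 6 fits that left out 1 library, those without Obese replicate 3, Lean replicate 7 or Lean replicate 9, and the ratio stayed between 0.485 and 0.605.

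COL26A1, a short secreted chain on chromosome 3, had the highest fold change among chains with both means above 3. It had 6.81, 10.5 and 9.39 normalized counts across the Obese libraries and 2.39, 5.96 and 6.15 across the Lean ones. The groups did not overlap, but their nearest libraries were under 1 normalized count apart, and the limma interval was -0.09 to 1.73 around a log2 fold change of 0.82. COL18A1, the multiplexin from which endostatin is released, was lower still, with 4.51, 4.71 and 9.19 in Obese-MSCs and 0.0396, 3.98 and 0.0088 in Lean-MSCs. No fold is given for COL18A1, because the values of 2 Lean libraries are far under that of 1 read. The other multiplexin, COL15A1, a chain of vascular and fat-cell basement membrane zones, had 105, 144 and 127 against 91.9, 116 and 132, with overlap and a log2 fold change of 0.15. Of the 4 transmembrane chains, only COL23A1 had groups apart, higher in Obese-MSCs, against 5.70% of all genes. It had 63.5, 67.3 and 81 in Obese-MSCs and 63.1, 48.6 and 44.2 in Lean-MSCs, and its nearest libraries were almost equal.

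The type IV chains, which form the sheet of basement membranes, overlapped between groups in all 6 cases, where 11.8% of all genes did not overlap. COL4A1 had 144, 167 and 157 normalized counts across the Obese libraries and 130, 144 and 161 across the Lean ones, and COL4A2 had 113, 120 and 97.9 against 70.4, 85.4 and 112. Their log2 fold changes were 0.10 and 0.30. The spans of COL4A1 and COL4A2 overlap by 525 bp on chromosome 11, and those of COL4A4 and COL4A3 by 663 bp on chromosome 15. Whether exons are shared there was not examined, and reads in any shared exon could not be assigned to 1 chain of a pair. The 3 type VI chains all had ratios below 1, where 51.2% of all genes had ratios above 1, and their median log2 fold change was -0.17. None had groups apart, against 11.8% of all genes. COL6A3, the type VI chain that fat releases endotrophin from, had 339, 277 and 276 against 362, 326 and 274. Its limma interval of -0.46 to 0.24 lay within a 1.4-fold change in both directions, as did those of COL14A1 and COL24A1. COL10A1, the short chain of hypertrophic cartilage, had 7.72, 9.51 and 7.14 against 10.2, 10.9 and 7.21, with overlap. The median width of the 40 limma intervals was 1.14 on the log2 scale.

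In vitamin-C-treated compared with untreated Obese-MSCs, no collagen chain had high or low 5hmC, against 1.92% of all genes called in either direction (1.11% high and 0.806% low). The treated and untreated libraries did not overlap in 2 of 42 chains (4.76%), against 5.91% of all genes, and in both the treated libraries were lower, against 2.67% of all genes. The p criterion alone was met by 1 chain, COL5A3, against 2.64% of all genes. With limma, 0 of 41 chains tested had an unadjusted p of 0.05 or less, against 0.974% of all genes tested (0.560% higher), and 0 passed after adjustment. Only COL20A1 was left out of limma by the filter on low means. The ratio of means was above 1 in 23 chains (54.8%, against 51.2% of all genes) and below 1 in 19. The median log2 fold change was 0.01 over 41 chains with both means above 3, with a range of -0.48 to 0.48, and 0.00 over all such genes. The share of the library total on collagen chains was 0.760%, 0.795% and 0.861% in treated replicates 4, 5 and 6, and 0.773%, 0.752% and 0.799% in untreated replicates 1, 2 and 3. The sum over the endothelial markers PECAM1, CDH5 and VWF was 162 to 195 normalized counts in treated and 201 to 219 in untreated libraries. Of these 3 only CDH5 had groups apart and lower with vitamin-C, against 2.67% of all genes, while PECAM1 and VWF overlapped and VWF had a ratio of 1.04. The part of these markers in the collagen values was not tested.

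**Figure D4:**
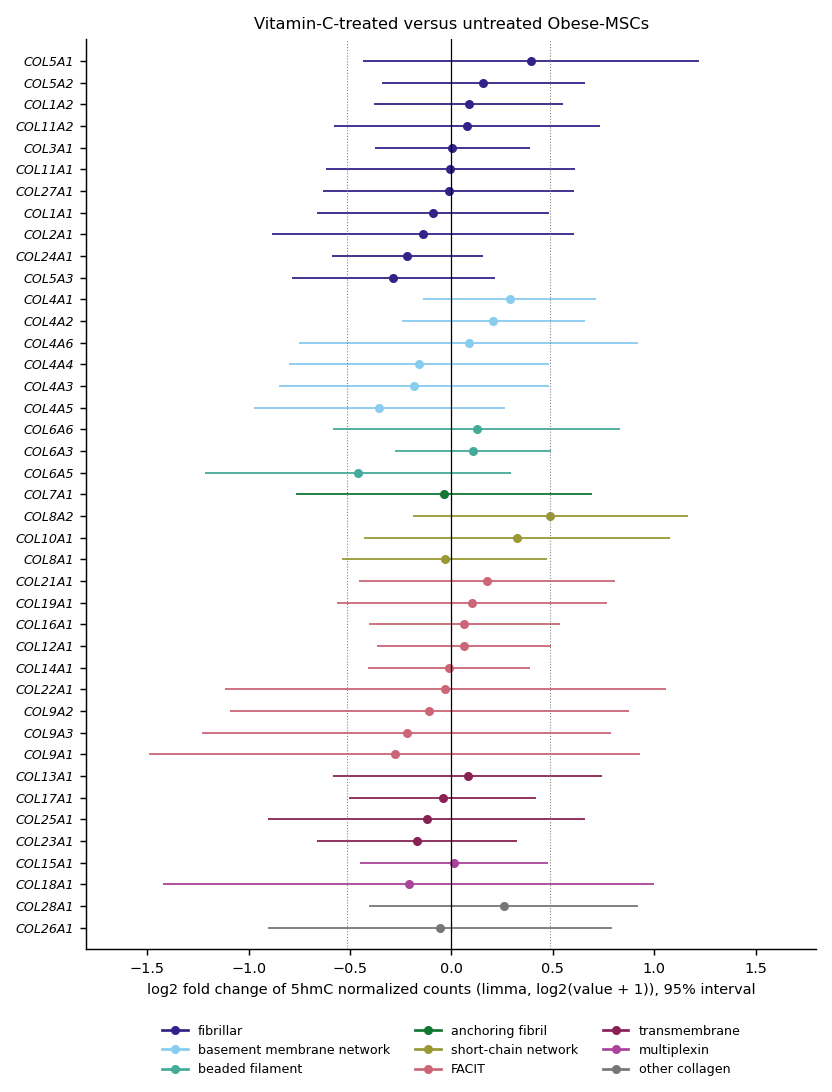
Log2 fold change of 5hmC normalized counts with vitamin-C against without it for the 41 collagen chains fitted by limma on log2(value + 1), with 95% intervals, coloured by structural class. Dotted lines mark ratios of 0.7 and 1.4. Every interval includes 0, and those of COL14A1, COL15A1 and COL3A1 lie between ratios of 1/1.4 and 1.4.

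The chains apart were COL5A3 and COL24A1. COL5A3 had 57.3, 66.7 and 57.2 normalized counts in treated replicates 4, 5 and 6 and 71.7, 69.7 and 80.1 in untreated replicates 1, 2 and 3. The treated libraries were all lower, by a smaller step than the thresholds ask for, at a ratio of 0.818 (log2 fold change -0.29, limma, adjusted p = 1.00). COL24A1, a fibrillar chain of developing bone and eye on chromosome 4, had 348, 373 and 289 against 393, 378 and 397. Treated replicate 5 and untreated replicate 2 were nearly equal there, and the ratio was 0.865. The exact two-sided permutation test gave 0.1 for both, which is the smallest p it can give with 3 libraries a group. In Obese-MSCs versus Lean-MSCs that test also gave 0.1 for COL3A1, COL5A2, COL7A1, COL16A1 and COL28A1.

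The chains that separated Obese-MSCs from Lean-MSCs are given here and in the next paragraphs with their treated values, from a table that shares the untreated libraries with that comparison. COL3A1 had 357, 353 and 346 normalized counts in treated libraries and 333, 311 and 416 in untreated libraries. The treated libraries lay close together inside the untreated range. The limma log2 fold change was 0.00 with a 95% interval of -0.38 to 0.39, which leaves out changes of 1.4-fold in either direction. COL28A1 had 18.1, 18.5 and 17 in treated and 12, 15 and 17.9 in untreated libraries. The groups overlapped, with a log2 fold change of 0.26 and a limma interval of -0.40 to 0.92. COL5A2 had 200, 248 and 140 against 157, 206 and 156, and COL16A1 136, 166 and 224 against 175, 158 and 161. In both the treated libraries spanned the untreated ones. COL26A1 had 6.04, 14.9 and 8.91 against 7.67, 11.8 and 10.3, with overlap. COL11A2 had 23.1, 26.8 and 42.3 against 22.3, 32.1 and 30.9, with overlap. COL21A1 had 40.2, 48.3 and 24.8 against 31.1, 34.3 and 31.1, and its treated libraries again spanned the untreated ones. COL23A1 had 68.4, 67.6 and 72.5 against 70.7, 76.2 and 89, where treated replicates 4 and 5 were below every untreated library and the ranges overlapped through replicate 6.

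COL7A1 was the most variable of the 35 chains averaging more than 10 normalized counts in treated libraries, with a coefficient of variation of 74.0%. It had 261, 251 and 828 normalized counts in treated replicates 4, 5 and 6 and 336, 351 and 496 in untreated replicates 1, 2 and 3. Replicates 4 and 5 were below every untreated library and replicate 6 was above every one, at 3.24 times the mean of replicates 4 and 5. The log2 fold change of COL7A1 was 0.18 with all libraries and -0.63 without replicate 6, where the unadjusted limma p was 0.0102. That fit kept untreated replicate 3, the highest untreated library. Replicate 6 was at least 1.4 times the mean of the other treated libraries in 9 of the 35 chains averaging more than 10 normalized counts, and at most 0.7 times in 7. These make 45.7% of the chains, where the same measure gave 41.4% of all genes in that library and at most 34.3% of chains in any other library. Without COL7A1, the collagen share of replicate 6 was 0.710%, against 0.717% and 0.751% in replicates 4 and 5. COL7A1 was picked for its high value in replicate 6, so a larger drop of that share was fixed beforehand.

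**Figure D5:**
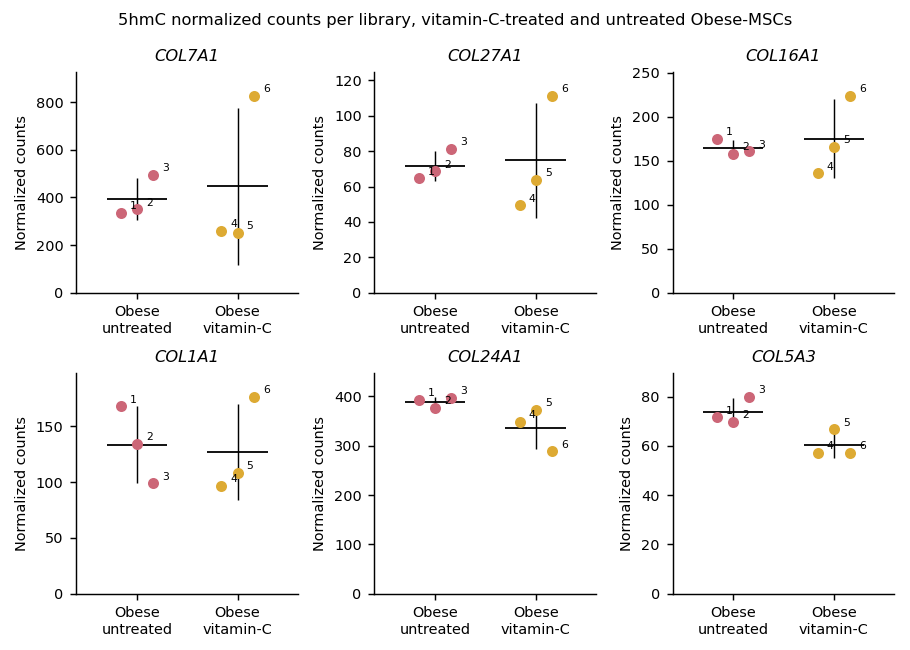
5hmC normalized counts of 6 collagen chains in each untreated and vitamin-C-treated Obese library, numbered by replicate, with the mean (horizontal line) and 1 SD (vertical line) of 3 libraries. Treated replicate 6 is the highest for COL7A1 (828), COL27A1 (111), COL16A1 (224) and COL1A1 (177), and the treated libraries are all below the untreated ones for COL24A1 and COL5A3.

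The other chains high in replicate 6 included COL27A1, with 49.3, 63.8 and 111 in treated and 64.7, 68.7 and 81.3 in untreated libraries. COL1A1 had 96.6, 108 and 177 against 168, 134 and 99. The treated and untreated ranges of COL1A1 were almost the same, and its limma interval was -0.66 to 0.48. COL1A2 had 103, 106 and 92.1 against 91.5, 89.1 and 103, with overlap and a log2 fold change of 0.09. COL5A1 varied within both groups, with 45.3, 122 and 121 in treated and 41.1, 112 and 63.7 in untreated libraries. Without treated replicate 4 its limma fold change was 1.82 with an unadjusted p of 0.0225. That fit left out the lowest treated library and kept untreated replicate 1, the lowest untreated library. With all libraries the limma fold change of COL5A1 was 1.31 with an unadjusted p of 0.329.

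The remaining chains of stroma, basement membrane and cartilage overlapped between treated and untreated libraries. COL4A1 had 180, 224 and 236 normalized counts against 161, 189 and 172, a log2 fold change of 0.30 with a limma interval of -0.14 to 0.71. COL4A2 had 125, 154 and 147 against 125, 135 and 108, and COL6A3 375, 379 and 312 against 376, 313 and 303. In COL4A1 and COL4A2 most treated libraries were above the untreated ones, and in COL6A3 the groups were mixed. COL15A1 had 149, 152 and 122 against 117, 163 and 140. COL10A1 had 14.1, 11.1 and 9.78 against 8.61, 10.7 and 7.9, and COL2A1 10.1, 12.9 and 18 against 16.5, 18.2 and 10.7. COL18A1 again had low values, with 2.02, 4.55 and 15.6 against 5.09, 5.4 and 10, and replicate 6 set its mean. COL4A5 had 20.1, 35.3 and 26.8 against 31.9, 34.3 and 37.4, and met the criteria for low 5hmC, at a ratio of 0.680, only when treated replicate 5 was left out.

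Of 35 genes that make collagen from its chains, 34 were measured. In Obese-MSCs compared with Lean-MSCs, 1 of the 34 had low 5hmC, against 2.43% of all genes, and none had high 5hmC, against 2.07%. It was PLOD2, the lysyl hydroxylase of telopeptides that directs stable crosslinks, with 28, 26.5 and 29.4 normalized counts across the Obese libraries and 55.1, 43.7 and 35 across the Lean ones. The Obese values were tightly grouped and all lay under the Lean values, with a ratio of 0.627 (limma, adjusted p = 0.697). The call of PLOD2 held in 1 of 6 fits that left out 1 library, that without Lean replicate 9. Groups did not overlap in 4 genes with higher values in Obese-MSCs, the prolyl hydroxylase family genes P3H3 and P3H4, the collagen galactosyltransferase COLGALT2 and the lysyl oxidase LOXL4, and in 3 with lower values, PLOD2, the COPII coat gene SEC23A and the procollagen proteinase TLL1. These are 7 of 34 genes, against 11.8% of all genes. In the 4 with higher values, the lowest Obese and the highest Lean library were close. They had 7.54 and 6.95 for P3H3, and 15.41 and 15.37 for P3H4. For COLGALT2 they had 12.2999 and 12.2965, and for LOXL4 41.4 and 40.7. None of 9 collagen receptor genes and none of 5 fibril-associated proteoglycan and matricellular genes was called, against 4.50% of all genes.

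None of the 34 processing genes was called between treated and untreated Obese-MSCs, against 1.92% of all genes. The groups were apart in 2 of the 34, against 5.91% of all genes. The first was P4HA1, the catalytic subunit of the prolyl hydroxylase that uses vitamin C, with 10.1, 10.2 and 10.7 in treated and 9.57, 5.43 and 8.99 in untreated libraries. The lowest treated library was less than 1 normalized count above the highest untreated one. The other was COLGALT2, with 7.05, 12.1 and 10.8 in treated and 13.8, 14 and 17.9 in untreated libraries, where the treated ones were lower. PLOD2 had 45.3, 55.7 and 30.2 in treated and 31.1, 30.1 and 32.3 in untreated libraries. Replicates 4 and 5 were above every untreated library and replicate 6 was within their range, and the log2 fold change was 0.49 with all libraries, while the ratio was 1.62 without replicate 6, where PLOD2 met the criteria for high 5hmC. The sister subunits P4HA2 and P4HA3 overlapped, with log2 fold changes of -0.04 and -0.01.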

How the data were processed

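The deposited values are signal per gene, which the authors made by aligning paired hMeDIP-seq reads to the porcine assembly (Sscrofa11.1), removing duplicates, counting reads over exons and normalizing the counts. The submitters' processing notes name Bowtie2 2.3.3.1, Picard 1.67, HTSeq 0.9.1 and edgeR 3.28.1. These normalized counts are relative within a table, so a change of 5hmC in all genes would not show. Whole reads could not be recovered for nearly all genes (15.8% to 100% of low values in a library were whole multiples of its step, within 0.05), so no count test was run, and errors come only from the spread of 3 libraries. In the vitamin-C table, 25 gene names were dates, 1 of them repeated, and 645 values of numerical residue were set to 0.

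From these values the equal-variance criteria were applied to every gene, and limma 3.58.1 (R 4.3.3) was fitted with a mean-variance trend to log2(value + 1) leaving out the lowest 20% of genes by mean, with p-values adjusted by Benjamini-Hochberg and called at 0.05. Single chains were compared by exact permutation of 3 against 3 libraries (20 arrangements, two-sided), which cannot go below 0.1. Python 3.11.15, numpy 2.4.6, pandas 2.3.3, scipy 1.17.1 and matplotlib 3.10.9 were used. The scripts were tested on simulated data.

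The members, gene lists and tests were chosen with earlier results of these data known. Values in every library were given for chains that met the criteria or had an unadjusted limma p of 0.05 or less, for up to 3 chains with the highest and 3 with the lowest fold changes among those whose groups did not overlap and whose means were above 3, and for 14 chains of stroma, basement membrane, cartilage or fat, of which COL6A1 and COL6A2 were not analysed here. Other chains were named after their values were seen. Alternatives were other thresholds, filters, pseudocounts, variance models, scalings and each library left out in turn. Groups came from the labels and gene positions from RefSeq.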

Additional observations from a re-analysis of the deposited data

How the results depend on the processing

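The 2 collagen chains called in Obese-MSCs versus Lean-MSCs became 1 with quantile normalization, 0 at a p threshold of 0.01, 1 with unequal variances, and 0 to 3 when 1 library was left out. The 5 with an unadjusted limma p of 0.05 or less became 3 without a variance trend, COL3A1, COL28A1 and COL26A1. COL26A1 was not among the 5, while COL5A2, COL7A1 and COL16A1 dropped out. The unadjusted limma p of COL3A1 was 0.0373 in that fit, against 0.00194 with the trend. The 1 processing gene called became 0 at a p threshold of 0.01, 0 with unequal variances, and 0 to 4 when 1 library was left out. Between treated and untreated Obese-MSCs, the count of called chains, which was 0, was 0 to 1 when 1 library was left out, as was the count with an unadjusted limma p of 0.05 or less, and the count of processing genes was 1 (COLGALT2) with quantile normalization and 0 to 2 when 1 library was left out. No result turned its direction while called, and no chain passed limma's adjusted threshold under any alternative. Of 122 summary values, 104 kept within 1.5 times or 1 SD of their main value. That number includes counts that were 0 in the main fit and stayed at 0, so it does not measure stability. The causes of these changes were not tested. The log2 fold change of COL24A1 in Obese-MSCs moved from 0.03 to -0.08 with quantile normalization, and without treated replicate 6 those of COL7A1 and COL18A1 were -0.63 and -1.06. No paired analysis was run, because the groups share no replicate numbers and the labels tie no treated culture to an untreated one. If treated and untreated cultures share animals, the unpaired comparisons can miss a shift smaller than the spread between animals.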

Other observations

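Collagen receptors and fibril-associated genes were read beside the chains. ITGA1, the collagen-binding integrin chain preferring type IV, had 243, 237 and 187 normalized counts in Obese-MSCs against 125, 188 and 160 in Lean-MSCs. Obese replicate 3 and Lean replicate 8 were almost equal, with an adjusted limma p of 0.679. MRC2, the endocytic receptor that takes up collagen fragments, had 72.3, 74 and 64.9 against 44.3, 56.6 and 53.4, and SPARC, a matricellular protein that binds collagen, had 123, 119 and 113 against 90.5, 104 and 90.4. In both, all Obese libraries were above all Lean libraries, with ratios of 1.37 and 1.25. Of the 9 receptors, MRC2 alone was apart and higher, and of the 5 fibril-associated genes SPARC alone, against 5.70% of all genes. GP6 alone was apart and lower, against 6.06%, with 7.85, 5.66 and 7.06 against 7.95, 7.94 and 9.24. The receptors DDR1 and DDR2 had log2 fold changes of 0.04 and -0.03. ENG, an MSC surface marker, also had groups apart and higher, against 5.70% of all genes, with 52.7, 67.4 and 52 against 51.7, 37.7 and 31.9. Its lowest Obese and highest Lean libraries were almost equal.

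Between treated libraries and untreated libraries, deviations from the group means over the 42 chains had a Pearson r of 0.55 for replicates 4 and 1, 0.58 for 5 and 2, and 0.38 for 6 and 3. The other 6 combinations lay between -0.38 and -0.05. Over 15192 genes the same combinations gave 0.26, 0.34 and 0.15, and the others -0.22 to -0.03. These are descriptions across genes, which are not independent replicates.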
